A study of Mus musculus with 20 samples.

Results

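Activated OT-I T cells in which the calcium pump gene Atp2a2 had been knocked out (KO) were compared with activated OT-I T cells of the control genotype, asking which mRNAs differ in activated T cells when the gene of this pump is disrupted. The comparison rests on 4 of the 20 RNA sequencing libraries of the study, 2 KO and 2 control, picked by group label. It was chosen with earlier results of these data known. It covers 13432 tested genes of the 46603 in the count table. The study as a whole used mouse B16F10 melanoma cells and mouse CD8 T cells, each with a gene knockout or the drug thapsigargin, which blocks the same pump. OT-I cells are CD8 T cells with a transgenic receptor for an ovalbumin peptide, and here they also carried the Cas9 nuclease. KO cells were OT-I/Cas9 CD8 T cells with an Atp2a2 knockout, kept with dimethyl sulfoxide (DMSO) vehicle for 8 hours and activated for 24 hours on a plate coated with antibody to CD3 at 2.5 µg/mL. Control cells were labelled Ctrl, and WT in the study's design, and had the same vehicle and activation. All T cells were grown with interleukin 2 (10 ng/mL), interleukin 7 (0.5 ng/mL), interleukin 15 (1 ng/mL), betamercaptoethanol and puromycin (4 µg/mL), so neither group was without cytokines. A further group of control cells was activated in the same way and given 50 ng/mL thapsigargin in place of vehicle. Resting control cells, used in the last comparisons, had no antibody to CD3 and were kept with vehicle or 50 ng/mL thapsigargin for 8 hours. The labels name neither the number of animals nor of cell clones.

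Atp2a2 encodes SERCA2, the pump that moves calcium from the cytosol into the endoplasmic reticulum (ER). In T cells, emptying of the ER store is sensed by STIM proteins, which open ORAI channels in the plasma membrane, and the calcium that enters activates calcineurin and the NFAT transcription factors. Calcium inside the ER is also needed by chaperones that fold secreted proteins, and poor folding or other stresses switch on the unfolded protein response and the integrated stress response, whose transcription factors include ATF4, CHOP and XBP1.

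The activated KO libraries held 17391798 and 12329629 counts and the activated control libraries 17462770 and 13521582 counts. Levels are given as CPM, counts relative to the library's total, scaled by trimmed mean of M values, and a gene was called where the adjusted p of edgeR's quasi-likelihood test was below 0.05. The 2 libraries labelled resting Atp2a2 KO did not look like resting cells. Over genes with at least 100 summed counts, the variance between libraries relative to counting noise was 2.1 to 4.47 between these libraries and activated KO libraries, 3.5 between both activated KO libraries, and 152 to 164 against the resting control libraries. These libraries enter no comparison here. They enter the shared estimate of the spread, and without them the counts of called genes were 2324 higher and 2623 lower. T cell markers were present: Cd8a had 724 and 766 CPM in the KO libraries, against 617 and 634 CPM in the control libraries, and Cd3e had 288 and 299.7 CPM in the KO libraries, against 238 and 233 CPM in the control libraries. Lyz2 and Ms4a1, markers of myeloid cells and B cells, had 0 counts in all 4 libraries, but other members of their lists had counts. Cd68, of the myeloid list, had 63 and 19 counts in KO and 50 and 36 in control libraries. Of the B cell list, Ebf1 had 34 and 29 counts in KO and 36 and 38 in control libraries. Cd79b had 26 and 14 counts in KO and 25 and 22 in control libraries. Ighm, an immunoglobulin gene on the B cell list, had 551 and 376 counts in KO and 435 and 362 counts in control libraries. Summed myeloid markers stood at 4.22 to 5.6 CPM in KO and 4.54 to 4.72 CPM in control cells, with none of their members called. In the list of 4 CD4 and regulatory T cell genes, Zbtb7b (1053 and 777 counts in KO, against 588 and 454 in control libraries) and Ctla4 were called higher, while Cd4 had 16 and 14 counts in KO and 16 and 13 in control libraries, and Foxp3 had 0 and 1 counts in KO and 0 and 0 in control libraries. The summed level of that list was 839.7 to 860.1 CPM in KO and 533.8 to 535.9 CPM in control cells. Of 6 natural killer cell genes, Klra4 (28 and 15 counts in KO, 5 and 2 in control libraries) and Klre1 (43 and 45 counts in KO, 25 and 12 in control libraries) were called higher and Gzma lower, and Ncr1 had 2 and 2 counts in KO and 0 and 0 in control libraries. Their summed level was 1276.6 to 1334.6 CPM in KO and 1435.1 to 1482.2 CPM in control cells. Melanocyte genes differed: Tyrp1 had 0 and 0 counts in KO libraries against 32 and 38 in control libraries, and Dct had 0 and 0 counts in KO libraries against 21 and 20 in control libraries. All 7 melanocyte genes listed had a count in the control libraries and 2 of 7 in the KO libraries, and their summed level was 1.08 to 1.28 CPM in KO and 5.07 to 7.26 CPM in control cells. In the other control groups Tyrp1 had 30 and 31 counts (activated, thapsigargin), 26 and 26 (resting, vehicle) and 35 and 20 (resting, thapsigargin). Dct had 11 and 22, 15 and 13, and 13 and 15 counts in these groups, in the same order. The libraries labelled resting KO had 1 and 0 counts of each gene. Whether KO and control cells were handled apart is not in the labels and was not tested. The melanoma libraries of the same study held 70918 to 122760 counts of Tyrp1. The part of RNA from other cell types in the results was not tested.

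The targeted gene was looked at first. Atp2a2 (chr5:122453513-122502225 on GRCm38, minus strand) had 434 and 436 CPM in the KO libraries, against 664 and 687 CPM in the control libraries. The groups did not overlap, which held in this direction for 34.0% of all tested genes. Atp2a2 mRNA was 1.55-fold lower in KO cells (log2 change -0.63, SE 0.034, adjusted p = 9.15e-23). KO cells kept mRNA of the targeted gene; disruption of a gene by Cas9 need not remove its mRNA, and SERCA2 protein was not measured here. Atp2a3 encodes SERCA3, the related pump of blood cells, and it rose to 123 and 122 CPM in KO cells, against 78.9 and 80.8 CPM in control cells (log2 change 0.62, SE 0.045, adjusted p = 4.01e-17). Per kilobase of exon, Atp2a2 stood at 71.5 CPM in KO and 111 CPM in control cells, and Atp2a3 at 23.3 CPM in KO and 15.1 CPM in control cells. Atp2a1, the SERCA1 gene of skeletal muscle, was at 0.7 and 0.828 CPM in KO and 0.349 and 0.53 CPM in control cells, and it was not called; its exons overlap those of Rabep2 on the opposite strand.

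Of 13432 tested genes, 2357 (17.5%) rose and 2629 (19.6%) fell in KO cells. These percentages are the background against which the counts of each gene list below are set. Some genes are in several lists, so the counts of different lists are not separate. Examples are Hspa5 (ER calcium-binding proteins and ER chaperones) and Bbc3 (BH3-only genes and p53 targets). Most called changes were small: the median called gene differed by 1.24-fold. At least 2-fold changes were fewer and leaned upward, with 350 genes higher (2.61%) and 64 lower (0.476%). The lower set includes the melanocyte gene Dct (log2 change -7.12) and other genes of low counts. With the filter of 5 CPM in 2 libraries, 204 were at least 2-fold higher and 20 lower. The libraries of both groups did not overlap in 31.6% of tested genes with KO higher and in 34.0% with KO lower. DESeq2 on the same counts called 1474 genes higher and 1665 lower, and 223 and 28 at 2-fold or more. In these bulk samples, fewer cells of a type and less RNA per cell cannot be told apart.

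**Figure D1:**
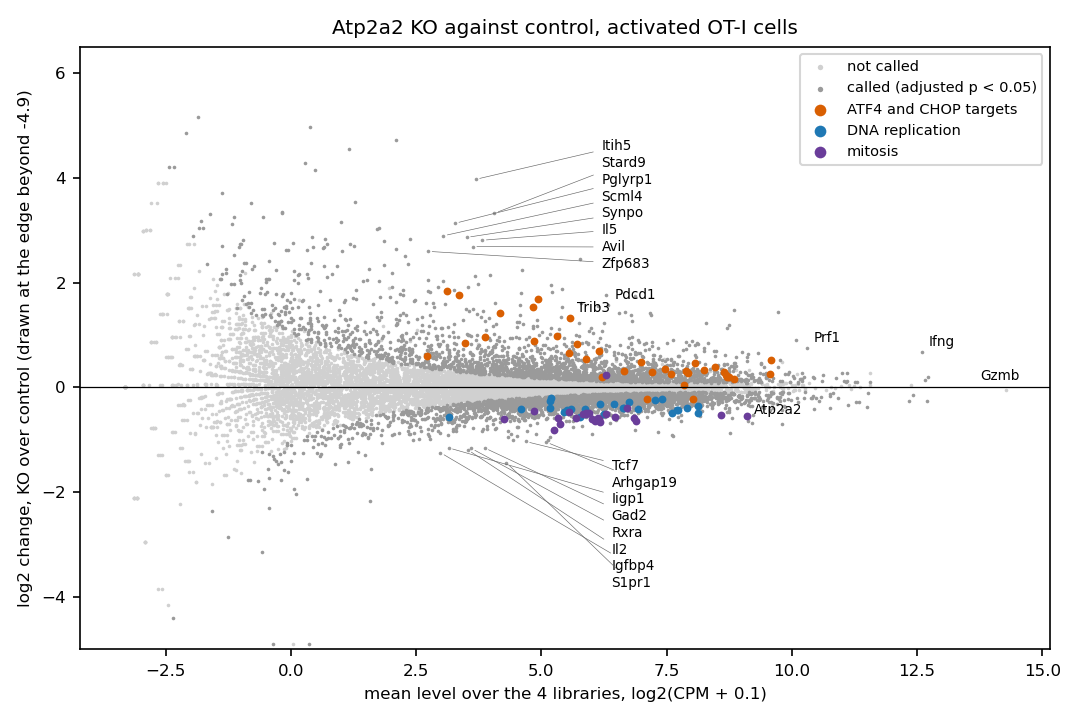
Each point is a gene, placed by its mean level over the 2 activated KO and 2 activated control libraries (log2 of CPM + 0.1) and by its log2 change in KO over control cells. Most ATF4 and CHOP targets (orange) lie above 0, with Trib3 at 1.32, while the replication (blue) and mitosis (purple) genes lie below 0 apart from 1 mitosis gene, Cenpa, at 0.23.

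The 12 genes with the largest rise, among those at 10 CPM or more in KO cells, were Itih5, Stard9, Pglyrp1, Scml4, Synpo, Il5, Avil, Zfp683, Nrp1, Akr1c18, Pkn3 and Trpm6. Itih5, a hyaluronan-binding protein of the extracellular matrix (chr2:10153571-10256529), had 23.8 and 24.2 CPM in the KO libraries, against 0.932 and 2.27 CPM in the control libraries. Its control libraries differed, and without control replicate 2 the log2 change was 4.67, against 3.97 with all libraries. Pglyrp1, a peptidoglycan-binding protein, had 16.6 and 17.8 CPM in KO against 1.86 and 2.04 CPM in control cells (log2 change 3.13, SE 0.16). Il5, the eosinophil growth factor, had 23.7 and 25.5 CPM in KO against 3.85 and 3.03 CPM in control cells (log2 change 2.81, SE 0.13, adjusted p = 2.33e-25). Genes entered this set only where the libraries of both groups did not overlap. Zfp683 encodes Hobit, a transcription factor of tissue-resident T cells, and had 12.2 and 10.3 CPM in KO against 1.92 and 1.82 CPM in control cells (log2 change 2.597, SE 0.18). Nrp1, a semaphorin and growth factor co-receptor, had 90.6 and 95.2 CPM in KO against 17.1 and 16.5 CPM in control cells (log2 change 2.46, SE 0.063, adjusted p = 5.95e-37). The remaining genes of this set rose by 2.13 (Trpm6, a magnesium channel) to 3.32 (Stard9, a kinesin) on the log2 scale. Exons of Stard9, Avil and Pkn3 overlap those of Cdan1, Tsfm and Zdhhc12 on the opposite strand, and since the strand setting of the counting is not known their reads could not be assigned with certainty.

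The 12 genes with the largest fall at 10 CPM or more in control cells included S1pr1, Igfbp4, Il2, Rxra, Gad2, Iigp1, Arhgap19, Tcf7, Il22, Timp1 and St8sia4. S1pr1 (chr3:115710433-115715072), the receptor that lets T cells leave lymph nodes, had 11.3 and 9.68 CPM in the KO libraries, against 28.7 and 28.9 CPM in the control libraries (log2 change -1.44, SE 0.098, adjusted p = 2.55e-18). Il2, the T cell growth factor, had 7.06 and 6.87 CPM in KO against 16.2 and 15.7 CPM in control cells, 2.29-fold lower in KO cells. Tcf7, the transcription factor TCF1 of naive and memory T cells, had 18.4 and 14.9 CPM in KO against 34.8 and 34.5 CPM in control cells (log2 change -1.03, SE 0.084, adjusted p = 2.1e-15). This set, too, holds only genes whose libraries did not overlap. Il22, a cytokine that acts on epithelia, had 22.7 and 24.2 CPM in KO against 49.6 and 44.1 CPM in control cells. Iigp1, an interferon-induced GTPase, had 5.66 and 5.05 CPM in KO against 11.3 and 13.01 CPM in control cells, and Rxra, a nuclear receptor for retinoids, had 7.41 and 7.45 CPM in KO against 17.2 and 15.96 CPM in control cells. The falls of the genes named here ran from 1.93-fold (St8sia4, a polysialyltransferase) to 2.72-fold.

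Genes of store-operated calcium entry changed unevenly. Orai1, the pore of the plasma membrane calcium channel, had 55.1 and 53.3 CPM in the KO libraries, against 27.3 and 26.2 CPM in the control libraries, 2.03-fold higher in KO cells (log2 change 1.02, SE 0.07, adjusted p = 3.31e-18). Orai2 rose as well (log2 change 0.45, SE 0.096), with 20.01 and 19.03 CPM in KO against 15.2 and 13.2 CPM in control cells. Stim1, the ER calcium sensor, was not called, with 56.5 and 55.2 CPM in KO against 54.8 and 50.5 CPM in control cells. Stim2, another sensor, fell slightly (log2 change -0.16), a call that was lost without either control library and without KO replicate 2 (-0.19, -0.14 and -0.13), by DESeq2 (-0.17) and with the filter of 5 CPM (-0.13). In all, 3 of 7 tested genes of this list rose and 1 fell. Among channels that release ER calcium, Itpr2 (36.99 and 30.8 CPM in KO against 25.3 and 21.3 CPM in control cells, log2 change 0.54) and Itpr3 (114 and 101 CPM in KO against 86.97 and 82.6 CPM in control cells, log2 change 0.35) rose, whereas Itpr1 had 410.0 and 369 CPM in KO against 376 and 363 CPM in control cells and was not called (it was without KO replicate 2, at 0.15, and with the filter of 5 CPM, at 0.10). The release and leak list had 3 of 9 higher and 3 lower. For this list, 1 was lower without KO replicate 1 and 1 was lower by DESeq2. Among the higher genes, Ryr3 rests on 5 and 5 counts in KO and 0 and 0 in control libraries and shares exon sequence with Aven on the opposite strand. Pumps and exchangers that remove calcium through the plasma membrane gave 1 of 3 higher and 2 lower: Atp2b1 rose (log2 change 0.20), while Atp2b4 (174 and 166 CPM in KO against 250.1 and 255 CPM in control cells, log2 change -0.57) and Slc24a3 (16.8 and 17.5 CPM in KO against 29.4 and 28.4 CPM in control cells, log2 change -0.76) fell. Of 11 calcium-binding proteins of the ER, 6 rose and 0 fell. The mitochondrial calcium uniporter list had 3 of 9 higher and 2 lower by edgeR, against 0 and 2 by DESeq2. For the uniporter, 1 was higher without control replicate 1 and 1 was lower without KO replicate 1.

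Downstream of calcium, Nfatc1 and Nfatc2 moved in opposite directions. Nfatc1 had 183 and 171 CPM in the KO libraries, against 108 and 104 CPM in the control libraries (log2 change 0.74, SE 0.043, adjusted p = 3.44e-21), and Nfatc2 had 104 and 97.7 CPM in the KO libraries, against 127 and 120.4 CPM in the control libraries (log2 change -0.29, SE 0.048, adjusted p = 1.37e-06). Rcan3, a calcineurin regulator, rose (log2 change 0.39), and Rcan1, a feedback inhibitor of calcineurin that NFAT induces, had 10.3 and 8.61 CPM in KO against 7.75 and 8.47 CPM in control cells and was not called. Over the calcineurin and NFAT list 4 of 16 genes rose and 5 fell.

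**Figure D2:**
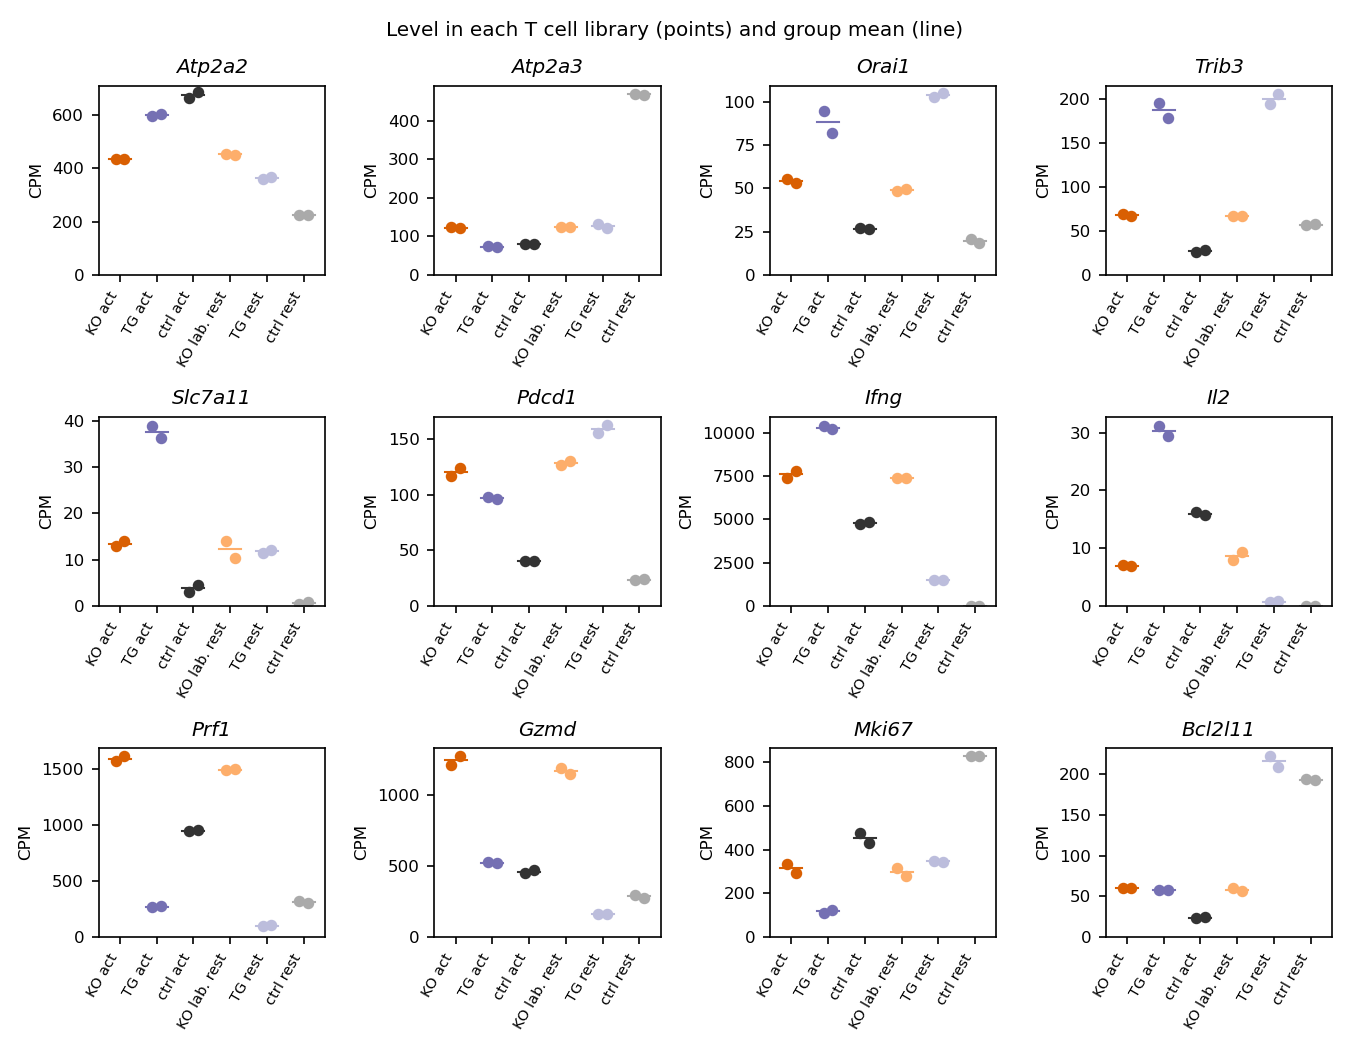
CPM of 12 genes in each T cell library (points, 2 per group) with the group mean (line). Groups are activated KO, activated control with thapsigargin (TG) and activated control with vehicle, then libraries labelled resting KO, resting control with TG and resting control with vehicle; the libraries labelled resting KO sit beside the activated KO in each of these genes, for example at 7358 and 7408 CPM of Ifng.

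Targets of ATF4 and CHOP, the transcription factors of the integrated stress response, rose nearly together. Of 36 tested genes of this list, 32 were called higher and 2 lower, with a median log2 change of 0.43, against -0.0043 over all tested genes. Leaving out any 1 library left 31 to 32 higher, and DESeq2 called 31. Slc7a11, the cystine transporter, showed the largest change with 12.8 and 13.99 CPM in the KO libraries, against 3.09 and 4.54 CPM in the control libraries, 3.57-fold higher in KO cells (log2 change 1.84, SE 0.15, adjusted p = 1.87e-14). Nupr1, a small stress-induced chromatin protein, had 14.8 and 16.9 CPM in KO against 4.78 and 4.39 CPM in control cells (log2 change 1.76, SE 0.13). Atf5, a transcription factor related to ATF4, had 43.9 and 49.1 CPM in KO against 16.6 and 11.3 CPM in control cells (log2 change 1.70, SE 0.14, adjusted p = 9.84e-07). Every KO library of these 3 genes was more than 2-fold above each control library. Trib3, a pseudokinase that feeds back on the response, had 69.1 and 67.1 CPM in the KO libraries, against 26.4 and 28.2 CPM in the control libraries (log2 change 1.32, SE 0.063, adjusted p = 5.27e-25). Slc6a9, a glycine transporter, had 40.8 and 43.6 CPM in KO against 13.3 and 16.1 CPM in control cells (log2 change 1.53, SE 0.079). Exons of Atf5 and Slc6a9 overlap those of the less abundant Il4i1 and B4galt2 on the opposite strand. Ddit3, which encodes CHOP, had 20.2 and 18.4 CPM in KO against 10.7 and 9.08 CPM in control cells (log2 change 0.96, SE 0.11, adjusted p = 8.85e-11). Its exons overlap those of Mars on the opposite strand, which was not called. Mars stood at a mean of 220 CPM over the T cell libraries, against 38.9 CPM for Ddit3, so reads of Ddit3 are uncertain. Atf4 itself rose by a smaller step, with 432 and 458 CPM in KO against 382 and 393 CPM in control cells (log2 change 0.20, SE 0.037), and Chac1, a glutathione-degrading enzyme, had 14.1 and 14.3 CPM in KO against 7.86 and 8.02 CPM in control cells (log2 change 0.84, SE 0.12).

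The enzymes of amino acid synthesis in the list also rose. Asns, asparagine synthetase, had 299.6 and 319 CPM in KO against 223 and 225 CPM in control cells (log2 change 0.46, SE 0.039), and Psph, of serine synthesis, had 87 and 88.05 CPM in KO against 53.1 and 55.5 CPM in control cells (log2 change 0.69, SE 0.051); exons of Psph overlap those of Cct6a on the opposite strand, which stood at a mean of 513 CPM over the T cell libraries, against 93.5 CPM for Psph, so reads of Psph are uncertain. The genes called lower were Atf3, a stress-induced transcription factor, and Ddit4, an inhibitor of mTORC1. Atf3 had 127 and 126 CPM in KO against 147 and 149 CPM in control cells (log2 change -0.23, SE 0.043, adjusted p = 1.79e-05), and Ddit4 had 234 and 245 CPM in KO against 289.6 and 271 CPM in control cells (log2 change -0.23, SE 0.076, adjusted p = 0.043), a call lost without control replicate 1 (-0.18), KO replicate 1 (-0.20) or KO replicate 2 (-0.27). The Ddit4 call was also lost with a replicate block (log2 change -0.23, adjusted p = 0.061) and with the filter of 5 CPM (-0.21, adjusted p = 0.063). Ppp1r15b (231 and 237 CPM in KO against 226 and 228 CPM in control cells) was not called, nor was Cebpb (7.29 and 8.28 CPM in KO against 5.13 and 5.07 CPM in control cells), which was called with only the compared groups (log2 change 0.61) and has exons that overlap the more abundant Tmem189 on the opposite strand.

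**Figure D3:**
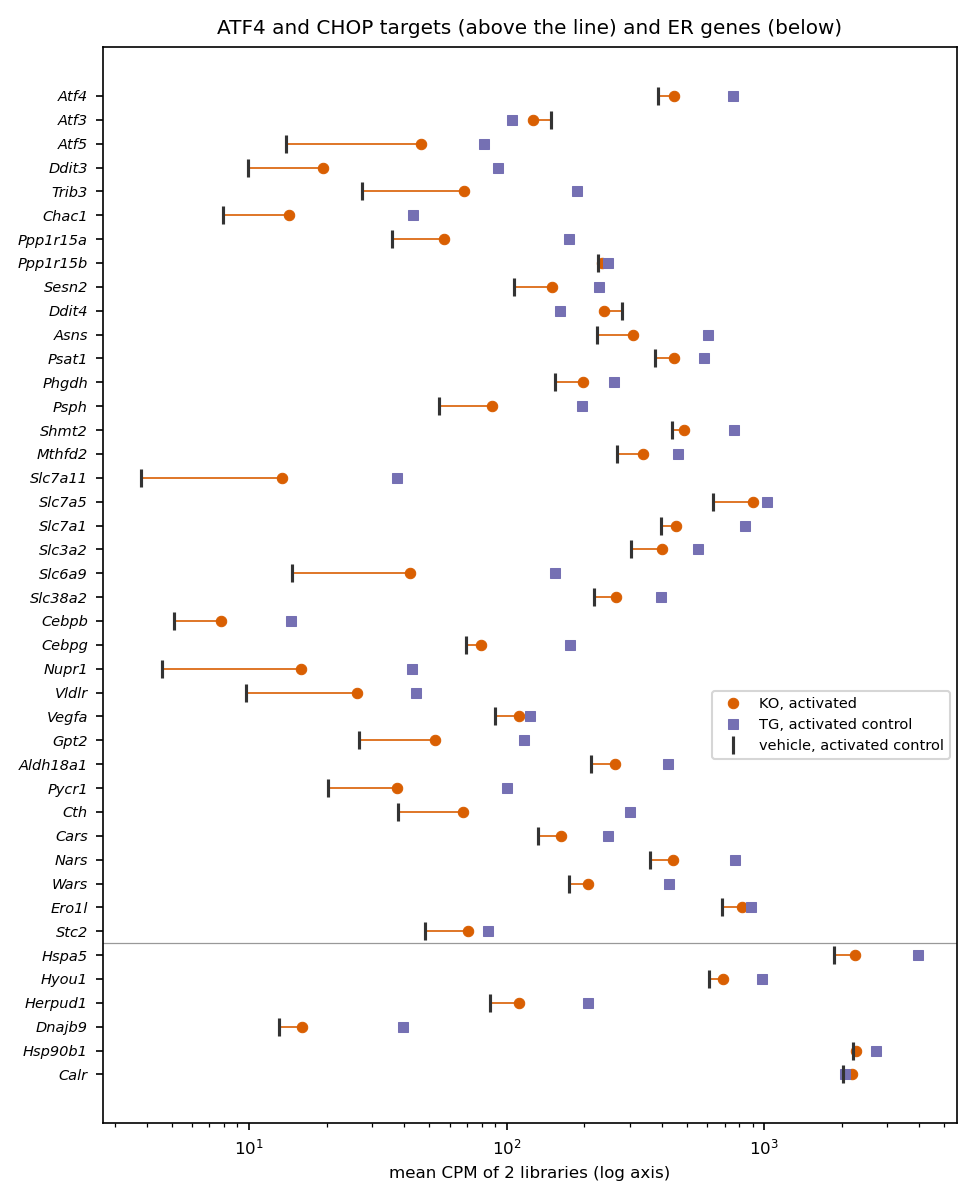
Mean CPM (log axis, 2 libraries per group) of each tested ATF4 and CHOP target, above the line, and of 6 ER genes below it, in activated KO cells (circles), activated control cells with thapsigargin (squares) and activated control cells with vehicle (ticks). The KO circle lies to the right of the vehicle tick for Slc7a11, Nupr1, Atf5 and Trib3, and to its left for Atf3 and Ddit4.

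ATF4 binds DNA with C/EBP proteins at a composite element, searched here as TGATGNAA on either strand in the 250 bases before each gene's start in RefSeq (GRCm38.p6). The element was found in 8 of the 31 list genes that have a promoter in the table, which is 20.5% of their 39 promoters. It was found in 3.45% of all 32851 promoters, in 2.02% of the promoters of tested genes, and in 2.83% of those of genes higher and 1.39% of those of genes lower in KO cells. The list was made of targets of ATF4 and CHOP, so its share is not independent of that choice of genes. The windows of the 7 genes that were tested are shown because they place the element beside the change of each gene; the eighth, Fgf21, did not pass the filter on low counts. Sequences run 5′ to 3′ on the strand of the gene, and capitals mark the element. Slc7a11 (chr3:50443633-50443699, minus strand) holds it in both orientations, and Nupr1 (chr7:126625553-126625600, minus), Vldlr (chr19:27216800-27216847, plus), Pycr1 (chr11:120643824-120643871, minus), Chac1 (chr2:119351029-119351076, plus), Asns (chr6:7693210-7693252, minus) and Atf3 (chr1:191183416-191183463, minus) hold it in a single place.
Slc7a11: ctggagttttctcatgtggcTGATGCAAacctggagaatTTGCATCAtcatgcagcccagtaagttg
Nupr1: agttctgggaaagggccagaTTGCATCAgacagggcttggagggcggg
Vldlr: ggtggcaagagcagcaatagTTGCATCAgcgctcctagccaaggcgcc
Pycr1: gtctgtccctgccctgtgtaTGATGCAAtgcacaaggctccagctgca
Chac1: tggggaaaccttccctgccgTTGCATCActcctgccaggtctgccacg
Asns: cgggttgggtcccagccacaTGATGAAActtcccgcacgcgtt
Atf3: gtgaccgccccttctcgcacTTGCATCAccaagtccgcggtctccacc
Beside these sequences, 6 of the genes rose, with log2 changes of 1.84 for Slc7a11, 1.76 for Nupr1, 1.43 for Vldlr, 0.88 for Pycr1, 0.84 for Chac1 and 0.46 for Asns, and Atf3 fell (log2 change -0.23). Over the whole list 32 of 36 tested genes rose, including genes in which the element was not found. A match of letters is a description and does not show that a factor was bound.

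Other branches of the ER response changed less. Hspa5, which encodes the ER chaperone BiP, had 2208 and 2306 CPM in the KO libraries, against 1832 and 1895 CPM in the control libraries, 1.21-fold higher in KO cells (log2 change 0.28, SE 0.032, adjusted p = 2.48e-10). Of 22 ER chaperones and folding enzymes, 13 rose and 1 fell, with a median log2 change of 0.14; leaving out any 1 library left 9 to 15 higher and 0 lower, and DESeq2 called 10 and 0. Hsp90b1, the ER form of HSP90, had 2236 and 2319 CPM in KO against 2158 and 2269 CPM in control cells and was not called. Among targets of the IRE1 and XBP1 branch, 10 of 26 rose and 3 fell (DESeq2, 6 and 2). For this branch, 6 were higher without control replicate 1, 0 were lower without control replicate 2 or KO replicate 1, 5 were higher with no filter and 1 was lower with only the compared groups. Dnajb9, a co-chaperone that XBP1 induces, rose by 0.31 on the log2 scale, a call lost without any 1 of control replicate 1, control replicate 2 and KO replicate 1 (0.33, 0.29 and 0.21), by DESeq2 (0.30) and with no filter (0.27). Sec11c, a subunit of the signal peptidase, rose more (119.5 and 126 CPM in KO against 88.9 and 87.2 CPM in control cells, log2 change 0.48). For ER-associated degradation, 6 of 19 genes rose and 2 fell. For degradation genes, 1 was lower without control replicate 1, control replicate 2 or KO replicate 1. Sel1l, the scaffold of the HRD1 ubiquitin ligase, had 214 and 216 CPM in KO against 148 and 149 CPM in control cells (log2 change 0.53, SE 0.039, adjusted p = 5.1e-17), and Herpud1 had 109 and 114 CPM in KO against 85.7 and 86.6 CPM in control cells (log2 change 0.37, SE 0.046). Of 12 sensors and proximal factors, 5 rose and 1 fell by edgeR, and 2 and 1 by DESeq2. For the sensors, 2 were higher without KO replicate 1, 3 were higher without control replicate 1, control replicate 2 or KO replicate 2 and 3 were higher with no filter. Xbp1 had 192 and 206 CPM in KO against 162 and 166 CPM in control cells (log2 change 0.28, SE 0.041), and Creb3l2, a membrane-bound transcription factor of the secretory pathway, had 78.95 and 77.9 CPM in KO against 43.05 and 45.01 CPM in control cells (log2 change 0.84, SE 0.056, adjusted p = 1.05e-18).

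Amino acid transporters rose with the stress response genes, from which 6 of this list's 12 members also come. Of 12 tested, 9 rose and 1 fell, with a median log2 change of 0.34. For the transporters, 0 were lower without control replicate 1 or KO replicate 1 and 0 were lower by DESeq2. Slc1a4, a neutral amino acid transporter outside the stress list, had 80.6 and 86.8 CPM in the KO libraries, against 39.5 and 39.95 CPM in the control libraries (log2 change 1.07, SE 0.055, adjusted p = 2.63e-23), and Slc1a5, a glutamine transporter, had 685 and 674 CPM in KO against 433 and 441 CPM in control cells (log2 change 0.64, SE 0.035). Of 20 cytosolic aminoacyl-tRNA synthetases, 10 rose and 5 fell. For the synthetases, 3 were lower without control replicate 2 or KO replicate 1. Sars had 378 and 398 CPM in KO against 297 and 297 CPM in control cells (log2 change 0.38, SE 0.037) and Nars 432 and 455 CPM in KO against 353 and 368 CPM in control cells (log2 change 0.30, SE 0.036), whereas Kars fell (log2 change -0.26).

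Genes of the cell cycle fell as a block, each by a small step. All 26 tested genes of DNA replication were lower in KO cells, with a median log2 change of -0.42 and a range from -0.57 (Mcm10, a replication initiation factor) to -0.21 (Tk1, thymidine kinase, whose call was lost without control replicate 2, at -0.17, without KO replicate 1, at -0.21, and by DESeq2, at -0.22). Mcm10 had 42.9 and 44.7 CPM in the KO libraries, against 64.2 and 65.5 CPM in the control libraries (log2 change -0.57, SE 0.061, adjusted p = 3.11e-11). Pola1, the catalytic subunit of DNA polymerase alpha, had 59.7 and 65.2 CPM in KO against 88.95 and 88.7 CPM in control cells (log2 change -0.52, SE 0.054). In both genes each KO library lay below each control library, which held for 34.0% of all tested genes. Of 24 mitosis genes, 23 fell and 1, the centromeric histone gene Cenpa, rose (88.2 and 79.9 CPM in KO against 72.6 and 70.96 CPM in control cells; log2 change 0.23, not called without KO replicate 1, at 0.15), with a median log2 change of -0.58. Kif23, a kinesin of cytokinesis, had 27.7 and 27.3 CPM in the KO libraries, against 46.7 and 51.1 CPM in the control libraries (log2 change -0.82, SE 0.07, adjusted p = 1.22e-14), and Mki67, the proliferation marker Ki-67, had 335 and 294 CPM in KO against 475 and 433 CPM in control cells (log2 change -0.53, SE 0.087). These counts hardly moved with the library left out: 25 to 26 replication genes and 23 mitosis genes stayed lower. G1 cyclins, kinases and inhibitors were mixed, with 5 of 17 higher and 7 lower. For G1 genes, 3 were higher without control replicate 1, control replicate 2 or KO replicate 1 and 3 were higher by DESeq2 or with no filter. Ccnd2, the abundant D cyclin of these cells, fell (log2 change -0.29), and Cdkn2b, an inhibitor of CDK4 and CDK6, rose (22.5 and 22.3 CPM in KO against 16.02 and 15.1 CPM in control cells, log2 change 0.52).

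E2F factors drive genes of S phase through an element searched here as TTTNGCGC on either strand. It was found in 3 of 20 replication genes with a promoter in the table (12.5% of 24 promoters), in 1.13% of all promoters, in 2.01% of those of tested genes, in 3.54% of those of genes lower in KO cells and in 1.31% of those of genes higher. The windows of these 3 genes are shown beside their falls, -0.36 for Mcm6, -0.43 for Mcm5 and -0.52 for Pola1. All 26 tested replication genes fell, including those in which the element was not found. Mcm6 has windows at chr1:128359784-128359835 and chr1:128359725-128359772 (minus strand), Mcm5 at chr8:75109336-75109387 (plus) and Pola1 at chrX:93632266-93632313 (minus). Capitals mark the element, and a longer run of capitals marks overlapping matches on both strands.
Mcm6, farther window: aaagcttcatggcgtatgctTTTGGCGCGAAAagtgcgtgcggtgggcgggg
Mcm6, nearer window: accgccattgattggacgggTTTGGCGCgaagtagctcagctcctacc
Mcm5: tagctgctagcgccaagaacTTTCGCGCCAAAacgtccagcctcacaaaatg
Pola1: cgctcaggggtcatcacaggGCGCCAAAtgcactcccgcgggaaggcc

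Growth and lipid genes fell with the cell cycle genes. Myc had 456 and 448 CPM in the KO libraries, against 569 and 556 CPM in the control libraries (log2 change -0.31, SE 0.036, adjusted p = 2.95e-10), and 17 of 24 genes of the MYC network and ribosome biogenesis fell while 2 rose, with a median log2 change of -0.27. Ncl, nucleolin, had 2468 and 2586 CPM in KO against 3189.5 and 3380.4 CPM in control cells (log2 change -0.38). The gene that rose most in this list, Mxd4, encodes an antagonist of MYC and had 47.2 and 48.9 CPM in KO against 30.4 and 29.05 CPM in control cells (log2 change 0.69, SE 0.066, adjusted p = 8.1e-13). Of 14 fatty acid synthesis genes, 10 fell and 0 rose. Scd1, stearoyl-CoA desaturase, had 171 and 176 CPM in KO against 262 and 279 CPM in control cells (log2 change -0.64, SE 0.039, adjusted p = 2.83e-20), and Elovl6, a fatty acid elongase, had 59.9 and 59.2 CPM in KO against 91.1 and 84.96 CPM in control cells (log2 change -0.57, SE 0.054). Of 23 sterol synthesis genes, 15 fell and 0 rose by edgeR, and 8 fell by DESeq2. For sterol genes, 9 were lower without control replicate 2 or KO replicate 1. Steps there were small: Dhcr7, the enzyme of the last step to cholesterol, fell by 1.21-fold.

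The receptor machinery of T cells moved mostly upward. Of 27 genes of the T cell receptor complex and its proximal signalling, 18 rose and 5 fell, with a median log2 change of 0.27. Zap70, the kinase recruited by the receptor, had 187 and 189 CPM in the KO libraries, against 106 and 109.9 CPM in the control libraries (log2 change 0.80, SE 0.045, adjusted p = 2.46e-21). Malt1, a protease of receptor signalling, had 288 and 278 CPM in KO against 169 and 176 CPM in control cells (log2 change 0.72, SE 0.039). Negative regulators were among the higher genes: Ubash3b, a phosphatase that acts on ZAP70, had 102 and 99.2 CPM in KO against 48.3 and 47.1 CPM in control cells (log2 change 1.08, SE 0.051, adjusted p = 2.73e-25), and Ptpn22, a phosphatase of LCK, had 387 and 376 CPM in KO against 221 and 232 CPM in control cells (log2 change 0.75, SE 0.036). Cd6, an adhesion receptor, fell (log2 change -0.49). Receptors of activation and costimulation were split, with 6 of 20 higher and 8 lower. Cd28 had 355 and 363 CPM in KO against 201 and 204 CPM in control cells (log2 change 0.83, SE 0.036, adjusted p = 1.11e-26) and Cd27 93.1 and 97.7 CPM in KO against 50.7 and 47.7 CPM in control cells (log2 change 0.95, SE 0.051). By contrast, Tnfrsf8, which encodes CD30, had 461 and 447 CPM in KO against 725 and 736 CPM in control cells (log2 change -0.68, SE 0.036, adjusted p = 6.29e-23), and Il2ra, the high-affinity interleukin 2 receptor chain, had 4699.9 and 4803 CPM in KO against 5599.8 and 5741 CPM in control cells (log2 change -0.25, SE 0.03). Cd69, an early activation marker, fell by 1.13-fold.

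Inhibitory receptors rose as a group. Of 14 tested, 11 were higher and 2 lower, with a median log2 change of 0.59. Pdcd1, which encodes PD-1, had 117 and 125 CPM in the KO libraries, against 40.7 and 40.6 CPM in the control libraries, 2.96-fold higher in KO cells (log2 change 1.56, SE 0.052, adjusted p = 6.74e-32). Havcr2, which encodes TIM-3, had 340.5 and 340.0 CPM in KO against 193 and 194 CPM in control cells (log2 change 0.81, SE 0.037, adjusted p = 5.12e-26). Lag3 had 522 and 538 CPM in KO against 378 and 389 CPM in control cells (log2 change 0.47, SE 0.035), and Ctla4 had 777 and 795 CPM in KO against 501 and 498 CPM in control cells (log2 change 0.65, SE 0.034). No library of either group overlapped the other in these 4 receptors, which held in this direction for 31.6% of all tested genes. Btla, another inhibitory receptor, went the other way, with 5.49 and 5.30 CPM in KO against 9.85 and 9.53 CPM in control cells (log2 change -0.84, SE 0.14, adjusted p = 9.65e-07). Genes linked to NR4A and TOX factors gave 8 of 14 higher and 2 lower. Nr4a3 rose (496 and 494 CPM in KO against 331 and 312 CPM in control cells, log2 change 0.62) and Nr4a1 fell (99.6 and 100.1 CPM in KO against 112 and 113 CPM in control cells, log2 change -0.17), both being orphan nuclear receptors induced by receptor signalling. Rgs16, a regulator of G protein signals, had 429 and 441 CPM in KO against 186 and 186 CPM in control cells (log2 change 1.23, SE 0.037, adjusted p = 6.6e-34). Tox rose from a low level, with 1.46 and 0.91 CPM in KO against 0.408 and 0.53 CPM in control cells (log2 change 1.40), and was not called without control replicate 1 (1.20) or without KO replicate 1 (0.97).

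Brakes on receptor signalling rose more often than they fell. In the list of anergy genes, ubiquitin ligases and diacylglycerol kinases, 8 of 14 rose and 1 fell (0 by DESeq2), and Cblb, a ligase that restrains T cell activation, had 440.4 and 426 CPM in KO against 266 and 269 CPM in control cells (log2 change 0.70, SE 0.035, adjusted p = 8.92e-24). Among DUSP, Sprouty and SOCS feedback genes 8 of 19 rose and 2 fell. Spred2, an inhibitor of the RAS pathway, had 39.1 and 38.5 CPM in KO against 17.9 and 17.7 CPM in control cells (log2 change 1.13, SE 0.08, adjusted p = 1.24e-17), and Spry1 had 28.5 and 30.1 CPM in KO against 18.6 and 15.7 CPM in control cells (log2 change 0.76, SE 0.09). Immediate early genes showed less, with 3 of 15 higher and 1 lower, led by Egr1 (110.4 and 115 CPM in KO against 72.5 and 70.96 CPM in control cells, log2 change 0.65). For immediate early genes, 2 were lower without KO replicate 2, 5 were higher with only the compared groups and 0 were lower by DESeq2. Genes of the NF-kB pathway gave 4 of 13 higher and 4 lower. For NF-kB genes, 2 were higher without control replicate 2 or KO replicate 1, 1 was higher by DESeq2 and 2 were higher with no filter.

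**Figure D4:**
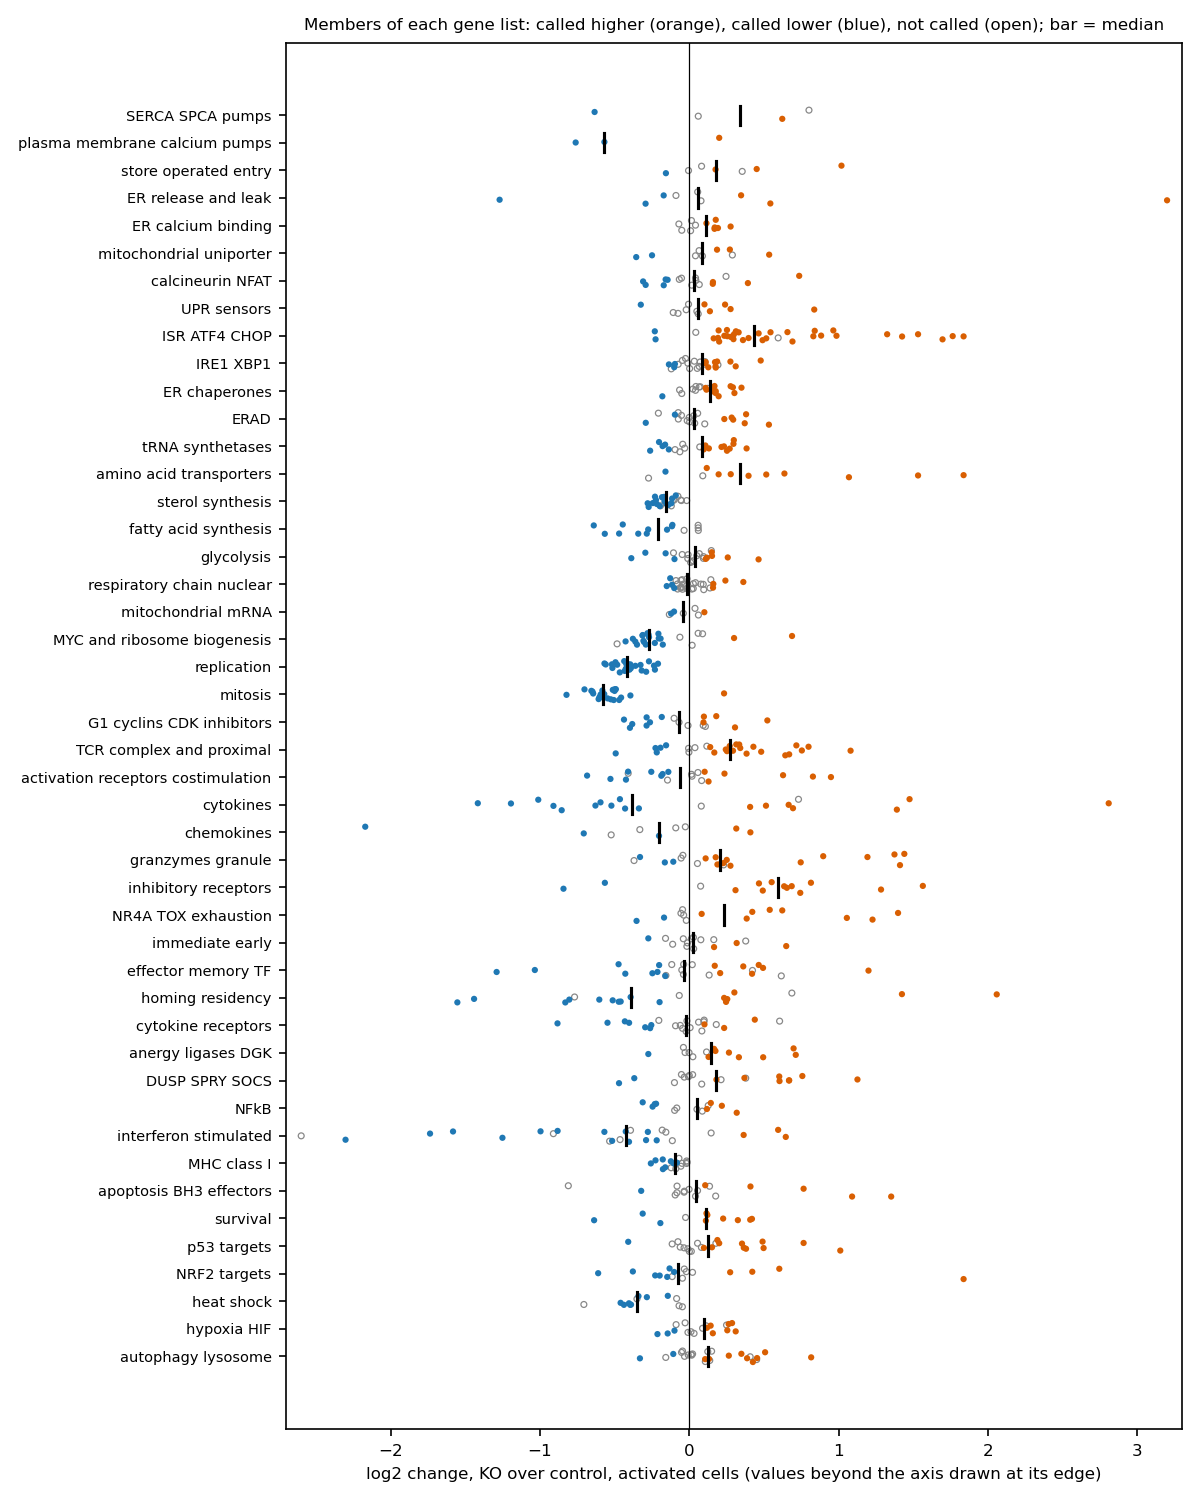
Log2 change in KO over control cells of each tested member of 46 gene lists, 1 row per list, with called higher members in orange, called lower in blue, uncalled members open, and the list's median as a black bar. The median lies at 0.43 for ATF4 and CHOP targets and 0.59 for inhibitory receptors, and at -0.42 for replication and -0.58 for mitosis.

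Cytokine genes were divided. Of 20 tested, 7 rose and 11 fell. Ifng, interferon gamma, had 7379 and 7809 CPM in the KO libraries, against 4708 and 4870.2 CPM in the control libraries, 1.59-fold higher in KO cells (log2 change 0.67, SE 0.03, adjusted p = 1.22e-25). Csf2, which encodes the growth factor GM-CSF, had 205 and 218 CPM in the KO libraries, against 80.9 and 79.97 CPM in the control libraries (log2 change 1.39, SE 0.045, adjusted p = 2.35e-32). Spp1, osteopontin, had 652 and 694 CPM in KO against 241 and 243 CPM in control cells (log2 change 1.48, SE 0.041). These rises, with Il5 above, stand against falls of Il2 (log2 change -1.20), Il22 (log2 change -1.01), Lta and Tnf. Lta, lymphotoxin alpha, had 133 and 137 CPM in KO against 252 and 255 CPM in control cells (log2 change -0.91, SE 0.039, adjusted p = 6.59e-27), and Tnf, tumour necrosis factor, had 81.7 and 76.96 CPM in KO against 117 and 111 CPM in control cells (log2 change -0.52, SE 0.049, adjusted p = 4.37e-13). Il3 had 112 and 117 CPM in KO against 201 and 213 CPM in control cells (log2 change -0.86, SE 0.048) and Il10 233 and 252 CPM in KO against 308 and 304 CPM in control cells (log2 change -0.34, SE 0.038). Chemokines gave 2 of 9 higher and 3 lower. Xcl1, which attracts cross-presenting dendritic cells, fell (667 and 695 CPM in KO against 1108 and 1114 CPM in control cells, log2 change -0.71), and Ccl9 rose (124 and 139 CPM in KO against 98.8 and 97.9 CPM in control cells, log2 change 0.41).

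Cytotoxic granule genes rose in part. Of 21 tested, 13 were higher and 3 lower, with a median log2 change of 0.20. Prf1, perforin, had 1572 and 1608 CPM in the KO libraries, against 946 and 949.6 CPM in the control libraries (log2 change 0.75, SE 0.033, adjusted p = 2.99e-26). Gzmd had 1209.6 and 1272 CPM in the KO libraries, against 448 and 467 CPM in the control libraries, 2.71-fold higher (log2 change 1.44, SE 0.036, adjusted p = 3.81e-37), and the neighbouring granzyme genes Gzmc (log2 change 0.90), Gzme (log2 change 1.19), Gzmf (log2 change 1.41) and Gzmg (log2 change 1.37) rose with it. These 5 granzymes are close copies of each other, so reads that map to several of them may have been counted in part. Gzmb, the main granzyme of activated CD8 T cells, had 18928 and 19792 CPM in the KO libraries, against 19856 and 20375 CPM in the control libraries and was not called (adjusted p = 0.13; called without KO replicate 2, at a log2 change of -0.09, and with no filter, at -0.10). Gzma fell slightly (1272 and 1329 CPM in KO against 1433 and 1481 CPM in control cells, log2 change -0.16), as did Serpinb9, an inhibitor of granzyme B (1958 and 2002 CPM in KO against 2466 and 2513 CPM in control cells, log2 change -0.33).

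Genes of homing and residency fell more often than they rose, with 10 of 19 lower and 6 higher. Beside S1pr1, the egress receptor described above, Ccr7, which guides T cells into lymph nodes, had 338 and 362 CPM in KO against 482 and 489 CPM in control cells (log2 change -0.47). Itgae, the CD103 integrin chain, fell from a low level (1.23 and 1.82 CPM in KO against 4.49 and 4.16 CPM in control cells, log2 change -1.55). Cxcr6, a receptor of resident and effector T cells, rose instead, with 204 and 216 CPM in the KO libraries, against 74.9 and 81.8 CPM in the control libraries (log2 change 1.42, SE 0.047, adjusted p = 9.2e-31). Of 24 transcription factors of effector and memory states, 7 rose and 8 fell. Gata3 had 35.1 and 34.01 CPM in KO against 14.2 and 16.2 CPM in control cells (log2 change 1.20, SE 0.087, adjusted p = 3.17e-17), Tbx21, which encodes T-bet, had 64.7 and 63.4 CPM in KO against 50.7 and 49.02 CPM in control cells (log2 change 0.36, SE 0.059), and Tcf7 fell as above. Cytokine receptors gave 3 of 23 higher and 7 lower (5 higher with the filter of 5 CPM), among them Ifngr1 (log2 change 0.44) and Il18r1 (log2 change -0.55).

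Genes of cell death and genes of survival both had members that rose. Bcl2l11, which encodes the BH3-only protein BIM, had 59.98 and 60.4 CPM in the KO libraries, against 23.3 and 23.9 CPM in the control libraries, 2.55-fold higher in KO cells (log2 change 1.35, SE 0.063, adjusted p = 2.73e-25). Bbc3, which encodes PUMA, had 18.96 and 19.5 CPM in KO against 12.6 and 9.61 CPM in control cells (log2 change 0.77, SE 0.15, adjusted p = 0.000953). Of 17 BH3-only and effector genes, 5 rose and 1 fell. For these genes, 3 were higher without control replicate 2 and 0 were lower without KO replicate 1. Bcl2, a survival gene that BIM antagonizes, also rose, with 465 and 451 CPM in KO against 339.7 and 346 CPM in control cells (log2 change 0.42, SE 0.035, adjusted p = 5.32e-15). The survival list had 7 of 11 higher and 3 lower by edgeR, with 1 higher and 3 lower by DESeq2, 4 higher with no filter and 3 higher without control replicate 1, control replicate 2 or KO replicate 1. Of 22 p53 targets, 11 rose and 1 fell, with a median log2 change of 0.12. Trp53inp1, a p53-induced regulator of cell death and autophagy, had 122 and 119.8 CPM in KO against 86.1 and 85.6 CPM in control cells (log2 change 0.50, SE 0.043).

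Interferon-stimulated genes fell more often than they rose, 13 lower and 3 higher of 25. Oas3, a sensor of double-stranded RNA, had 46.7 and 43.6 CPM in KO against 86.97 and 79.8 CPM in control cells (log2 change -0.88, SE 0.055, adjusted p = 8.06e-20), and Bst2, tetherin, had 83.6 and 84 CPM in KO against 114 and 111 CPM in control cells (log2 change -0.43, SE 0.049). Several members were near 1 CPM, such as Oasl2 (0.117 and 0.331 CPM in KO against 1.11 and 0.984 CPM in control cells), whose log2 change was -1.64 without KO replicate 1 and -3.07 without KO replicate 2. Of 16 genes of MHC class I presentation, 8 fell and 0 rose (5 fell by DESeq2, or without control replicate 2 or KO replicate 1), and B2m, the class I light chain, had 1337 and 1394 CPM in KO against 1605 and 1659.8 CPM in control cells (log2 change -0.26, SE 0.032, adjusted p = 1.69e-09). Genes of cytosolic and mitochondrial heat shock proteins gave 8 lower and 0 higher of 13. Hsp90aa1 had 749 and 775 CPM in KO against 1004 and 1062 CPM in control cells (log2 change -0.44, SE 0.036, adjusted p = 2.17e-15) and Hspd1, the mitochondrial chaperonin, 664 and 698 CPM in KO against 888 and 898 CPM in control cells (log2 change -0.39, SE 0.035). NRF2 targets had 4 of 16 higher and 7 lower. For NRF2 targets, 4 were lower without KO replicate 1 and 4 were lower by DESeq2.

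Genes of core energy metabolism were called in both directions. Glycolysis genes gave 6 of 22 higher and 5 lower, with Slc2a3, a glucose transporter, up (534 and 545 CPM in KO against 387 and 395 CPM in control cells, log2 change 0.46) and Hk2, hexokinase 2, down (606 and 593 CPM in KO against 787 and 784 CPM in control cells, log2 change -0.39). For glycolysis, 3 were lower without control replicate 1, control replicate 2 or KO replicate 1 and 3 were lower by DESeq2, with the filter of 5 CPM or with only the compared groups. Nuclear genes of the respiratory chain gave 4 of 30 higher and 4 lower, a smaller share than the 17.5% and 19.6% over all genes. For this list, 1 was higher without KO replicate 2, 2 were higher without control replicate 2, 0 were lower without KO replicate 1, 1 was lower without control replicate 2 and 7 were lower with no filter. Mitochondrial mRNAs gave 1 of 7 higher and 2 lower. For these mRNAs, 0 were higher without control replicate 2 or KO replicate 2, 0 were lower without control replicate 1, control replicate 2 or KO replicate 1, 0 were higher by DESeq2 and 1 was lower by DESeq2. Hypoxia genes gave 7 of 18 higher and 3 lower. For hypoxia genes, 1 was lower without control replicate 2. Of 25 autophagy and lysosome genes 9 rose and 2 fell by edgeR (4 and 1 by DESeq2). For these genes, 5 were higher without control replicate 1 and 1 was lower without control replicate 2 or KO replicate 1. Sqstm1, the autophagy receptor p62, had 305 and 320.2 CPM in the KO libraries, against 176 and 179 CPM in the control libraries (log2 change 0.82, SE 0.038, adjusted p = 3.13e-25).

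KO cells were next set against activated control cells given thapsigargin, which blocks the pump proteins themselves. The KO libraries are the ones used above. Of 13432 genes, 4035 (30.0%) were higher and 4095 (30.5%) lower in KO than in thapsigargin-treated cells. Stress genes were lower in KO cells: 32 of 36 ATF4 and CHOP targets were lower and 2 higher, with a median log2 difference of -0.78. Ddit3 had 20.2 and 18.4 CPM in KO against 96.2 and 88.8 CPM with thapsigargin (log2 -2.25, SE 0.072, adjusted p = 5.55e-34). Trib3 had 69.1 and 67.1 CPM in KO against 196 and 179 CPM with thapsigargin (log2 -1.46, SE 0.048, adjusted p = 2.54e-33). Hspa5 had 2208 and 2306 CPM in KO against 3979.8 and 3925 CPM with thapsigargin (log2 -0.81, SE 0.032, adjusted p = 1.4e-29), and 17 of 22 ER chaperones were lower in KO cells. In these 3 genes the KO libraries lay above the vehicle control libraries and below the thapsigargin libraries.

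Proliferation genes and most granule genes differed in the other direction. All 26 replication genes and all 24 mitosis genes were higher in KO than in thapsigargin-treated cells, with median log2 differences of 0.99 and 1.12, and all 23 sterol synthesis genes were higher, with a median of 1.09. Prf1 had 1572 and 1608 CPM in KO against 268 and 271 CPM with thapsigargin (log2 2.56, SE 0.036, adjusted p = 1.33e-50). Gzmb had 18928 and 19792 CPM in KO against 5999.5 and 6008 CPM with thapsigargin (log2 1.69, SE 0.03, adjusted p = 4.01e-46). Of 21 granule genes, 15 were higher and 3 lower in KO cells. Cytokines gave 12 of 20 higher and 6 lower: Csf2 had 205 and 218 CPM in KO against 59.5 and 63.8 CPM with thapsigargin and Spp1 652 and 694 CPM in KO against 59.9 and 60.2 CPM with thapsigargin, while Il2 had 7.06 and 6.87 CPM in KO against 31.2 and 29.5 CPM with thapsigargin and Il3 112 and 117 CPM in KO against 639 and 628 CPM with thapsigargin. Ifng was lower in KO cells, with 7379 and 7809 CPM in KO against 10388 and 10200.1 CPM with thapsigargin (log2 -0.44, SE 0.03, adjusted p = 6.99e-19). Atp2a2 had 434 and 436 CPM in KO against 596 and 604 CPM with thapsigargin (log2 -0.46, SE 0.034, adjusted p = 7.59e-18). Pdcd1 differed less, with 117 and 125 CPM in KO against 98.5 and 96.4 CPM with thapsigargin (log2 0.30, SE 0.047, adjusted p = 1.14e-07), and Bcl2l11 had 59.98 and 60.4 CPM in KO against 57.8 and 57.4 CPM with thapsigargin and was not called.

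By the rule of size used above, the genes highest in KO relative to thapsigargin were Zfp683, Tcrg-C1, Tgm2 and Epas1. Zfp683 had 210 and 124 counts in KO libraries against 1 and 0 with thapsigargin. Epas1, which encodes the hypoxia factor HIF-2 alpha, had 164 and 156 CPM in KO against 3.15 and 3.90 CPM with thapsigargin (log2 5.49, SE 0.088, adjusted p = 7.81e-48). Tgm2, a transglutaminase, had 73.3 and 71.2 CPM in KO against 1.70 and 1.07 CPM with thapsigargin, and 71.2 and 71.6 CPM in vehicle control cells; its exons overlap those of Rprd1b on the opposite strand. The genes lowest in KO relative to thapsigargin were Ccn1, Fam171b, Cox6a2 and Cd33. Ccn1, a matricellular protein, had 1.17 and 1.08 CPM in KO against 41.8 and 39.3 CPM with thapsigargin (log2 -5.15, SE 0.15, adjusted p = 2.14e-35).

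Genes called in KO cells were finally read in comparisons that share none of their libraries. In resting control cells, thapsigargin against vehicle raised 34.1% and lowered 35.2% of all tested genes. Of the 2357 genes higher in KO cells, 47.3% were higher and 34.2% lower with thapsigargin there, and of the 2629 genes lower in KO cells, 25.1% were higher and 52.6% lower. Among the 350 genes at least 2-fold higher in KO cells the shares were 48.0% higher and 23.1% lower. Among the 64 genes at least 2-fold lower they were 9.38% higher and 51.6% lower. Nrp1, at least 2-fold higher in KO cells, was at 379 and 386 CPM with thapsigargin and 5.54 and 6.64 CPM with vehicle in resting cells, and Orai1, also at least 2-fold higher, was at 103 and 105 CPM with thapsigargin and 20.97 and 18.4 CPM with vehicle. S1pr1, at least 2-fold lower in KO cells, was at 3.98 and 4.56 CPM with thapsigargin and 51.5 and 47.98 CPM with vehicle.

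Activation was read in thapsigargin-treated control cells, activated against resting, where 32% of tested genes were higher and 31.9% lower. Of genes higher in KO cells, 24.3% were higher and 52.5% lower on activation there. Of genes lower in KO cells, 56.3% were higher and 22.3% lower. Among the 64 genes at least 2-fold lower in KO cells, Dct included, the shares turned, with 17.2% higher and 34.4% lower. These shares describe the genes, which are not independent of each other, and they carry no test. The resting thapsigargin libraries are in both comparisons, set against vehicle in the former and against activated cells in the latter. Their levels enter with opposite signs, so opposite shares are partly built in and the readings are not separate.

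**Figure D5:**
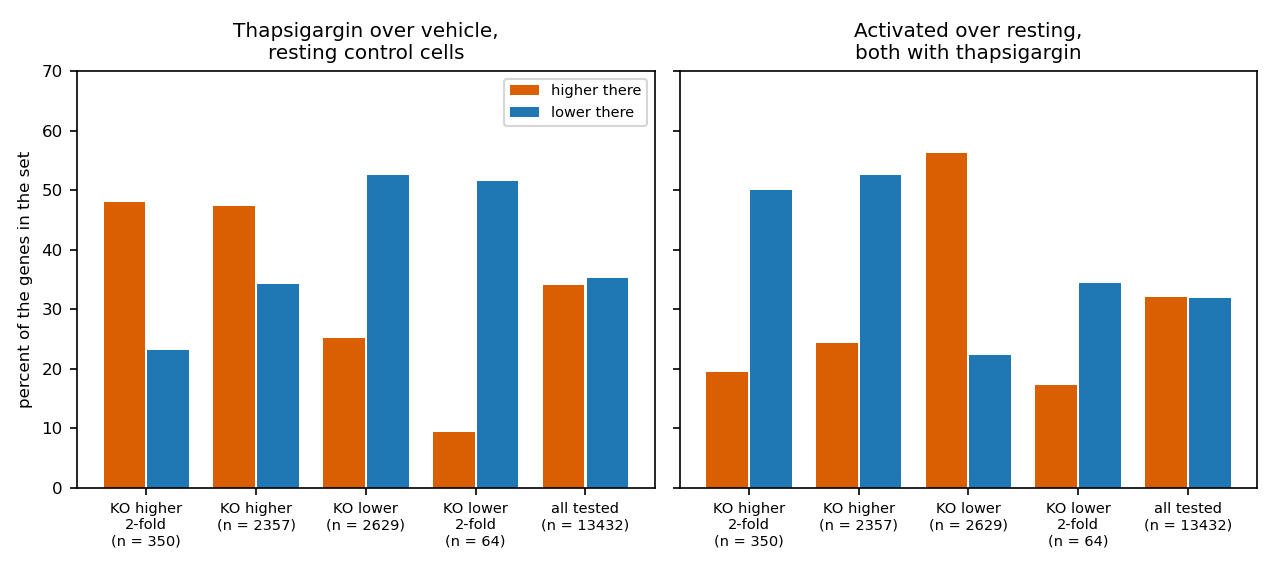
Percent of genes called higher (orange) or lower (blue) in thapsigargin over vehicle in resting control cells (left) and in activated over resting cells, both with thapsigargin (right), for sets of genes by their change in activated KO over control cells, with all tested genes last. Of genes higher in KO cells 47.3% were higher with thapsigargin in resting cells, against 34.1% of all tested genes.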

How the data were processed

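Total RNA of 20 mouse libraries was sequenced, and the 12 T cell libraries (6 groups of 2) were used here. The deposited values are gene counts; per the submitters' processing notes, the genome build was GRCm38 (mm10), the aligner STAR 2.6.0c and the counting tool HTSeq. Strand, annotation release and filters are not given in the sources used here. Of 46603 gene identifiers in the deposited count table, 46091 were named from GENCODE M21; the 512 others held 0.0759% of counts.

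Counts were fitted in R 4.3.3 with edgeR 4.0.16 (trimmed mean of M values scaling, filterByExpr, robust quasi-likelihood test, Benjamini-Hochberg adjustment over 13432 genes) in 1 model of the 6 groups with 6 residual degrees of freedom. The common biological coefficient of variation was 2.8%. Whether both libraries of a group are separate cultures is not stated, so p-values measure only the spread between these samples, which may be technical. The threshold for a call was an adjusted p of 0.05. CPM use the same scaling. Printed SE are approximate errors of the log2 change, taken as its absolute value divided by the square root of the test's F. The fits were also run on counts simulated from the means and spreads of these data, which does not test how well the model describes these libraries. Alternatives were a test with DESeq2 1.42.0, scaling by relative log expression, testing genes without a filter or with at least 5 CPM in 2 libraries, replicate number as a block, only the compared groups, no libraries labelled resting KO, and each library left out.

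Named are Atp2a2, the 12 genes that rose and the 12 that fell most, where the libraries did not overlap and the higher group averaged 10 CPM or more (4 each way against thapsigargin; gene-model symbols left out), a panel, and from each of 54 lists at most 4 called members, those that changed most. Other list members named in the text, 25 in all, such as Mki67, Tk1, Cenpa, Oas3 and Hspd1, were chosen after their values were seen. The comparison, lists and members were chosen with earlier results of these data known. Some genes that the rule names are not reported here. Promoters are from RefSeq.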

Additional observations from a re-analysis of the deposited data

Results flagged for a closer look

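The libraries labelled resting Atp2a2 KO carry signal that no comparison above uses and that lies above the resting control libraries. Ifng averaged 7382.8 CPM in them and 8.998 and 9.78 CPM in the resting control libraries, beside 7379 and 7809 CPM in the activated KO libraries. Itih5 averaged 22.3 CPM in them, beside 23.8 and 24.2 CPM in activated KO and 8.28 and 8.58 CPM in resting control libraries. Atp2a2 averaged 453.4 CPM in them, beside 434 and 436 CPM in activated KO and 225 and 225 CPM in resting control libraries. Groups of 2 libraries are too small for a test of single outlying libraries.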

How the results depend on the processing

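DESeq2 called 1474 genes higher and 1665 lower in KO against control cells, against 2357 and 2629 by edgeR; the cause was not tested. Without 1 library at a time, the counts ran from 1786 to 2147 higher and from 1889 to 2401 lower, and against thapsigargin from 3560 to 3835 higher and from 3520 to 3853 lower. A filter of 5 CPM, which tests fewer genes, left 204 genes at least 2-fold higher and 20 lower, against 350 and 64. With no filter 1846 genes were higher and 3065 lower. With a replicate block the counts were 2320 and 2580; replicate numbers are the only pairing in the labels, and deviations of same-numbered KO and control libraries correlated at 0.1087. Of 256 named genes, 247 were called, 211 of them under all alternatives run, and 36 lost the call in at least 1. Most of these genes were named because they were called and changed most in their list. These counts therefore do not describe called genes in general. Itpr1, not called, ran from -0.0035 to 0.15 with 1 library left out, the lowest without KO replicate 1. The smallest called change was 1.06-fold.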
